A study of Mus musculus with 20 samples.

Results

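Genes of ion channels and ionotropic receptors were followed in the retina of mice with defects in the photoreceptor transcription factors CRX and NRL. They were taken by symbol from deposited tables of genes that differed between genotypes, by 18 family prefixes covering potassium, calcium, sodium, chloride, HCN, TRP and anoctamin channels and GABA, glutamate, glycine, nicotinic and P2X receptors. The genes described number 10 among the 566 of the table for postnatal day 2 (P2) and 26 among the 1497 of the table for postnatal day 21 (P21). They make 32 different genes of the 1865 in either table, and 4 of them (Ano2, Cacna1h, Kcnn1 and Kcnv2) were in both tables. A further gene, Kcnh6, stood in the P21 table under an older name and so lay outside the symbol rule. RNA was from whole retina of C57BL/6J mice of 5 genotypes: wild type, CrxRip/+ and CrxRip/Rip (heterozygous and homozygous for CrxRip, an allele of Crx that acts dominantly), Crx-/- (both copies of Crx inactivated) and Nrl-/- (both copies of Nrl inactivated). All alleles are in the germ line, so every cell of the animal carries them, and CrxRip/+ retains 1 normal copy of Crx. Each genotype had 2 samples at each age, 20 in all, and each sample was a pool of 2 retinas. The labels do not say how the retinas of the 2 samples relate beyond being duplicates, so p values measure the spread between pools.

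Channels and ionotropic receptors are the proteins through which retinal cells carry current. In a photoreceptor, light closes cyclic nucleotide gated channels of the outer segment, channels of the inner segment shape the voltage response, and L-type calcium channels at the synaptic terminal set glutamate release. Many channels are assembled from a pore-forming subunit and auxiliary or modulatory subunits that set its gating and its place in the cell, and some subunits, such as Kcnv2 and the Kcng family, form no channel by themselves but join other potassium channel subunits. Crx and Nrl act above this layer: Crx is needed for the maturation of rods and cones, and in the absence of Nrl the rod precursors become cone-like photoreceptors.

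Values are FPKM, fragment counts scaled to transcript length and library size, rounded to 1 decimal, so the read depth behind a value is unknown and values under about 1 FPKM are limited by rounding. Every gene of either table had passed a threshold of the authors' own comparisons (adjusted p under 0.05, a change of 1 or more on the log2 scale, and 2 FPKM or more on average in 1 of the genotypes, in at least 1 of 10 comparisons). Channel genes outside the tables were not analysed here, and the calls below describe genes already selected for differing somewhere. Nrl stood at 0.1 and 0.1 FPKM at P2 and 0.2 and 0.2 at P21 in the Nrl-/- samples, against 69.4 and 81.0 and 466.1 and 427.6 in wild type. Crx transcript was still present in Crx-/- at P21 (167.9 and 171.4 FPKM against 350.7 and 343.9 in wild type), and which exons the deletion removes is not given in the labels, so this checks nothing. The sums over the P21 table were 53395.9 and 55335.3 FPKM in wild type and 21569.4 to 40702.0 in the mutants, and the channel genes alone summed to 505.7 and 502.8 in wild type and 294.6 to 583.8 in the mutants. Of 10 rod markers all were in the P21 table and all fell in all 4 mutants, their sum going from 16937.8 and 18005.3 FPKM in wild type to 408.8 to 1693.2 in the mutants. Changes are differences of log2(FPKM + 1) from limma, called at an adjusted p under 0.05. In these bulk samples fewer cells of a type and less RNA per cell cannot be told apart.

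At P21 channel genes moved in both directions in every mutant. In CrxRip/+, 9 of 26 rose and 6 fell, beside 39.5% and 35.0% of all genes of the table. In CrxRip/Rip, 9 rose and 13 fell, beside 36.3% and 44.3%. In Crx-/-, 13 rose and 10 fell, beside 39.8% and 41.5%, and in Nrl-/-, 12 rose and 6 fell, beside 40.4% and 31.8%. The median change of the channel genes was 0.14, -0.30, 0.42 and 0.26 in that order, and that of all genes 0.13, -0.14, -0.04 and 0.17. The shares lay above those of the table in some comparisons and below them in others, and the account rests on single genes. Rescaling the samples by the median of ratios moved the median of all genes from 0.13 to 0.01 in CrxRip/+ and from 0.17 to 0.00 in Nrl-/-, and in CrxRip/+ the split became 7 higher and 8 lower.

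**Figure D1:**
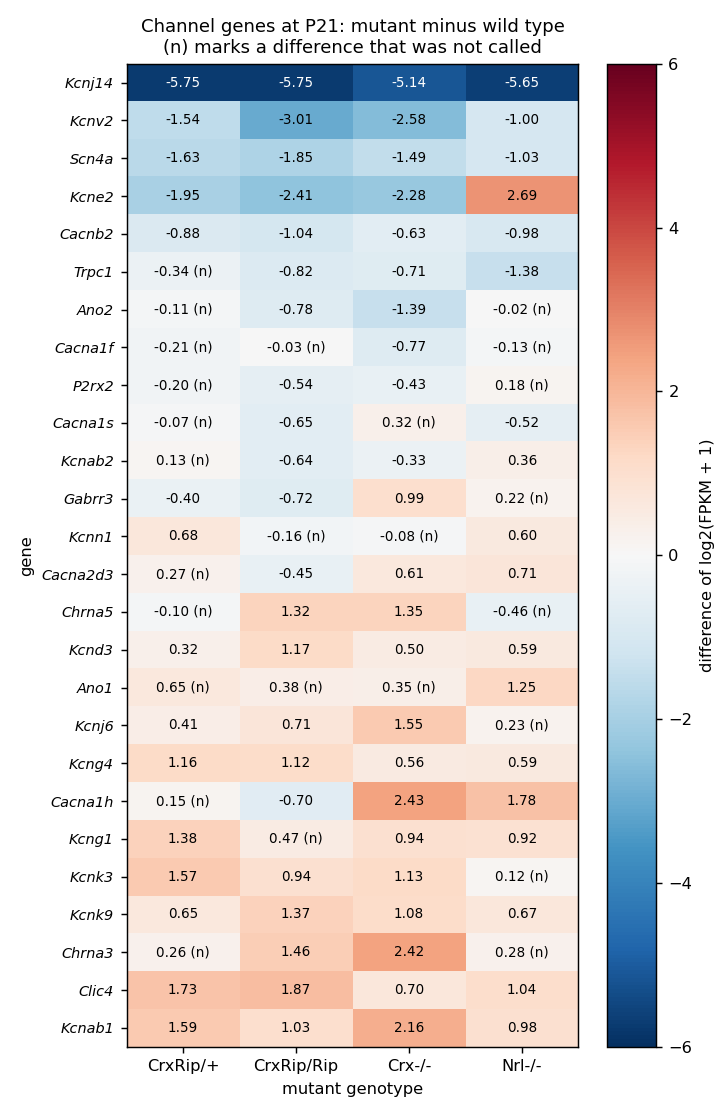
Difference of log2(FPKM + 1) between each mutant (columns) and wild type for the 26 channel genes at P21 (rows, ordered by their mean change), with the value printed in each cell, blue for lower and red for higher, and (n) for a difference that was not called. Kcnj14 heads the falls at -5.14 to -5.75, Kcne2 changes sign in Nrl-/-, and Kcnab1 and Clic4 stand at the foot with rises in all 4 columns.

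4 genes fell in all 4 mutants: the potassium channel subunits Kcnj14 and Kcnv2, the sodium channel Scn4a and the calcium channel beta subunit Cacnb2. They are 15.4% of the 26, against 25.5% of all genes of the table with that pattern. 5 genes rose in all 4: Kcnab1, Clic4, Kcnd3, Kcng4 and Kcnk9, or 19.2% against 21.0%. Another 5 (Cacna1h, Cacna2d3, Gabrr3, Kcnab2 and Kcne2) rose in some mutants and fell in others, which is 19.2% of the channel genes and 9.55% of the table. After rescaling, limma no longer called the fall of Cacna2d3 in CrxRip/Rip (adjusted p 0.076) or the rise of Kcnab2 in Nrl-/- (0.265). The place of both genes in this pattern, and so the share of the channel genes, depended on the scale.

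For 6 genes the promoter window of RefSeq (GRCm38.p6, 250 bases before and 50 from the start site) is printed below. Genes moving together can thus be set side by side. Kcnj14, Kcnv2, Kcnk9 and Cacna1h, which also show these patterns, had no window. The 6 were picked from genes with a window, so how many of them hold a core does not describe the channel genes. Cacnb2 and Scn4a fell in all 4 mutants, Clic4 and Kcng4 rose in all 4, Kcne2 changed sign in Nrl-/-, and Ano2 is 1 of the 4 genes in both tables. Capitals mark TAATCC (or GGATTA, its reverse complement), the core that CRX binds, and TGCTGA (or TCAGCA), the core of the element that NRL and other MAF factors bind. The windows lie at chr2:14604056-14604355 (plus strand, Cacnb2), chr11:106349341-106349640 (minus, Scn4a), chr4:135272711-135273010 (minus, Clic4), chr8:119635631-119635930 (minus, Kcng4), chr16:92292139-92292438 (plus, Kcne2) and chr6:125690169-125690468 (plus, Ano2).
Cacnb2: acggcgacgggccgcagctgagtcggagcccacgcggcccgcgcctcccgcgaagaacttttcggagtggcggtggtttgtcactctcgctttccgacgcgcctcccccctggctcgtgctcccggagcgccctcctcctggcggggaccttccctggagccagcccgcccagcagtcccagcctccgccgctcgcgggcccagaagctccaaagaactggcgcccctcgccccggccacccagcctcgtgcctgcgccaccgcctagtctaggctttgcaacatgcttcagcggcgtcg
Scn4a: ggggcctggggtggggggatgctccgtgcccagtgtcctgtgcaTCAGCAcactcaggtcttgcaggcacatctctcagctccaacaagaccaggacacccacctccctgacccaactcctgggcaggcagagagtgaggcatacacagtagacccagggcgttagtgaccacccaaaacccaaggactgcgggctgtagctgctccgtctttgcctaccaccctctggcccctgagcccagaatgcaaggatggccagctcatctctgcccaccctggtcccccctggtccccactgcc
Clic4: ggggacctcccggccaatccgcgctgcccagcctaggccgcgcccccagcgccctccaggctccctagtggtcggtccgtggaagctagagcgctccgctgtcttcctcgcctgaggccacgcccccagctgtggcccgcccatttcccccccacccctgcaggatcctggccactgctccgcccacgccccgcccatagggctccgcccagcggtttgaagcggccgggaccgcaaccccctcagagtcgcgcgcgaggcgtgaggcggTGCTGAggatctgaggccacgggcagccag
Kcng4: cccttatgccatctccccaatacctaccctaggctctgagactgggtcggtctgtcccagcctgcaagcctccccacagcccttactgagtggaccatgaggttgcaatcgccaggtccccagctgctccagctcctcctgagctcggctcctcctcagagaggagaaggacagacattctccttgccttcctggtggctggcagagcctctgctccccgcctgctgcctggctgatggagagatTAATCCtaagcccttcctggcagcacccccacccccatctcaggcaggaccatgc
Kcne2: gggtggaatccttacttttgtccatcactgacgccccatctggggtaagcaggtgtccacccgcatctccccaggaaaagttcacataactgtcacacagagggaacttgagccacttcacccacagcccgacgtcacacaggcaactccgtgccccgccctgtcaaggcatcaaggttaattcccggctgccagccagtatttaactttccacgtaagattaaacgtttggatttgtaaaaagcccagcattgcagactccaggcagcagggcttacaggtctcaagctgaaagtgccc
Ano2: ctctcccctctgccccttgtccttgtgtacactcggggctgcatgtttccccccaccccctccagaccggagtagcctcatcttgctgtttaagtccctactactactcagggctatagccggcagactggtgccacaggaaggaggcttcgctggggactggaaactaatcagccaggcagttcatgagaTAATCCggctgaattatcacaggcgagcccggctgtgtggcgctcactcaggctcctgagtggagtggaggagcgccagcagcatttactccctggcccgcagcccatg
TAATCC occurred 59 bases before the start site of Ano2 and 5 bases before that of Kcng4. The reverse complement of TGCTGA occurred 206 bases before the start of Scn4a, and TGCTGA itself 20 bases after that of Clic4. Neither core occurred in the windows of Cacnb2 and Kcne2. Of the 23 channel genes with a window within 500 bases of the deposited transcript's start, 3 (13.0%) held TAATCC on either strand, against 7.06% of 32851 RefSeq windows, and 5 (21.7%) held TGCTGA, against 19.5%. The 6-letter matches are descriptions of these windows only, and the 2 cores do not overlap each other in the 6 genes.

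Kcnv2, a modulatory potassium channel subunit of photoreceptors (chr19:27322061-27337179, plus strand), had the highest wild-type level of the 26 genes and fell in all 4 mutants. It was at 127.7 and 119.3 FPKM in wild type, 44.8 and 39.1 in CrxRip/+, 17.6 and 11.9 in CrxRip/Rip, 19.9 and 19.8 in Crx-/- and 67.2 and 56.1 in Nrl-/-. All mutant samples were below wild type, and the Nrl-/- samples were the highest of them. The change was -1.54, -3.01, -2.58 and -1.0 (standard error 0.17, adjusted p 7.29e-05, 1.01e-06, 2.85e-06 and 0.000871). In CrxRip/+ and in Nrl-/- its mean level was thus lowered 2.94-fold and 2.00-fold.

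Kcnj14, an inward rectifier potassium channel (chr7:45816467-45824747, minus strand), had the largest fall of the 26. It was at 74.8 and 74.3 FPKM in wild type, 0.4 and 0.4 in CrxRip/+, 0.4 and 0.4 in CrxRip/Rip, 1.4 and 0.9 in Crx-/- and 0.5 and 0.5 in Nrl-/-. All 8 mutant samples were near the lower end of the scale, including CrxRip/+ with its normal Crx copy. The change was -5.75, -5.75, -5.14 and -5.65 (standard error 0.118, adjusted p 8.9e-09, 4.45e-09, 1.82e-08 and 1.02e-08). It ranked 7 from the lowest change of 1497 genes in Nrl-/- and 9 in CrxRip/+.

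Scn4a, the pore-forming sodium channel subunit best known from skeletal muscle (chr11:106317545-106365559, minus strand), was a low transcript that fell in the same 4 comparisons. It was at 3.7 and 3.3 FPKM in wild type, 0.4 and 0.5 in CrxRip/+, 0.3 and 0.2 in CrxRip/Rip, 0.5 and 0.7 in Crx-/- and 1.2 and 1.2 in Nrl-/-. Nrl-/- kept the highest level of the mutants, with changes of -1.63, -1.85, -1.49 and -1.03 (standard error 0.109, adjusted p 4.11e-06, 1.32e-06, 4.99e-06 and 5.15e-05).

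Cacnb2 fell in every mutant, and its means in the mutants lay closer to each other than to wild type. Cacnb2, the beta subunit that brings L-type channels to the photoreceptor synapse (chr2:14603861-14988811, plus strand), was at 42.3 and 39.6 FPKM in wild type, 22.4 and 21.3 in CrxRip/+, 18.6 and 20.3 in CrxRip/Rip, 27.5 and 24.6 in Crx-/- and 20.3 and 20.1 in Nrl-/-. The wild-type samples stood apart and the mutants lay close together. The change was -0.88, -1.04, -0.63 and -0.98 (standard error 0.0902, largest adjusted p 0.000234). The summed rod markers were lower in the same mutant samples, and their part in these 4 falls was not tested.

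**Figure D2:**
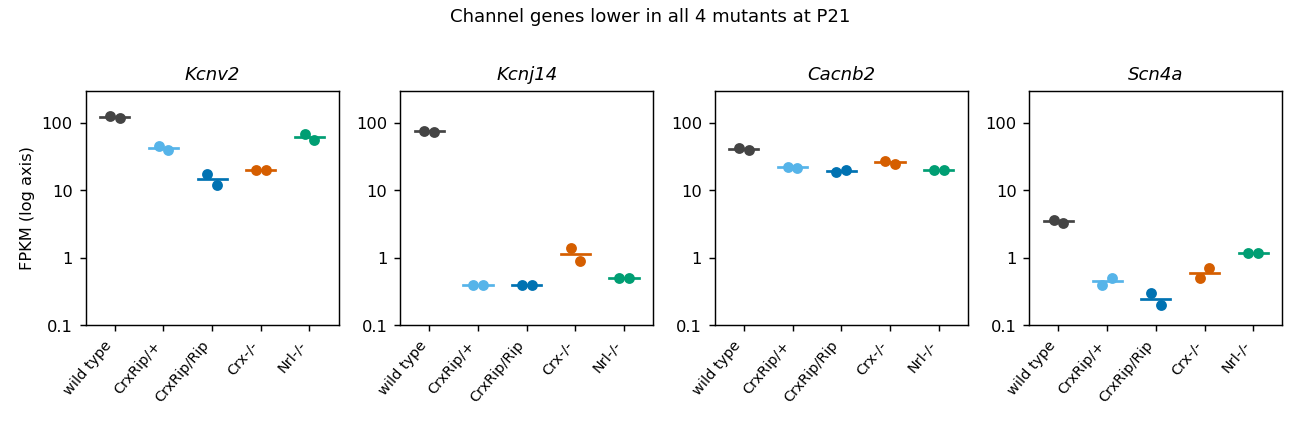
FPKM at P21 on a log axis for the 4 genes that fell in all 4 mutants, with 1 point per sample and a line at the mean of the 2 samples of a genotype. Kcnj14 drops from 74.8 and 74.3 to at most 1.4, Kcnv2 spreads over the mutants, and Cacnb2 steps down to similar levels in the mutants.

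Among the potassium channel auxiliary subunits, Kcne2 and Kcnab1 changed in every mutant and Kcnab2 in 3. Kcne2, a small membrane protein that modifies several potassium channels (chr16:92292389-92298133, plus strand), was at 25.3 and 23.3 FPKM in wild type, 5.2 and 5.9 in CrxRip/+, 3.5 and 4.0 in CrxRip/Rip, 4.3 and 4.1 in Crx-/- and 170.6 and 153.5 in Nrl-/-. The 6 samples with Crx alleles were below wild type and the Nrl-/- samples far above it. It changed by -1.95, -2.41 and -2.28 in the 3 Crx genotypes and by 2.69 in Nrl-/- (standard error 0.103, largest adjusted p 1.1e-06). The Nrl-/- mean was 6.67-fold the wild-type mean and 43.2-fold the lowest group mean. Only 20 of the 1497 genes (1.34%) were called lower in all 3 Crx genotypes and higher in Nrl-/-. All 10 cone markers rose in Nrl-/-, their sum going from 712.9 and 774.2 FPKM in wild type to 6530.8 and 6763.9, and their part in the rise of Kcne2 was not tested.

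Kcnab1 and Kcnab2 encode cytoplasmic beta subunits of Shaker-type channels. Kcnab1 (chr3:64949212-65378225, plus strand) was at 16.7 and 15.4 FPKM in wild type, 54.1 and 46.9 in CrxRip/+, 28.0 and 40.7 in CrxRip/Rip, 78.2 and 72.2 in Crx-/- and 32.6 and 32.6 in Nrl-/-. Every mutant sample was above wild type and Crx-/- was the highest group. It rose by 1.59, 1.03, 2.16 and 0.98 (standard error 0.161, largest adjusted p 0.00069). Kcnab2 was at 58.1 and 59.9 in wild type, 67.1 and 62.0, 35.7 and 39.4, 48.3 and 44.9, and 83.9 and 69.3 in the mutants in that order. It fell in CrxRip/Rip (-0.64, adjusted p 0.000724) and in Crx-/- (-0.33, 0.0206) and rose in Nrl-/- (0.36, 0.0163), with 0.13 in CrxRip/+. The 2 smaller calls for Kcnab2 depended on single pools: the adjusted p in Crx-/- was 0.0609, 0.0885 and 0.106 without wild-type replicate 1, wild-type replicate 2 or Crx-/- replicate 2. In Nrl-/- it was 0.0789, 0.0529 and 0.113 (change 0.23) without wild-type replicate 1, wild-type replicate 2 or Nrl-/- replicate 1, and 0.265 after rescaling (change 0.14).

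The other genes that rose in all 4 mutants were Clic4, Kcnd3, Kcng4 and Kcnk9. Clic4, a chloride intracellular channel protein (chr4:135213969-135272760, minus strand), was at 5.2 and 5.6 FPKM in wild type, 18.8 and 21.9 in CrxRip/+, 24.7 and 20.3 in CrxRip/Rip, 9.7 and 9.1 in Crx-/- and 13.4 and 11.0 in Nrl-/-. Both CrxRip groups lay above the other mutants, and no mutant sample overlapped wild type. It rose by 1.73, 1.87, 0.70 and 1.04 (standard error 0.133, adjusted p 8.87e-06, 3.67e-06, 0.00129 and 0.000165). Of 8 pigment epithelium markers, 5 were in the P21 table. Their sum was 8.2 to 16.7 FPKM in wild type, 31.8 to 37.3 in CrxRip/+, 31.2 to 46.1 in CrxRip/Rip, 40.6 to 66.2 in Crx-/- and 29.5 to 40.3 in Nrl-/-, and none was at 0. Of 10 Müller glia markers only 1, Gfap, was in the P21 table. It also rose in all 4 mutants, from 4.5 and 3.7 in wild type to 6.5 at the lowest and 26.8 at the highest. The part of pigment epithelium and glia in the rises was not tested.

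Kcnd3, the pore of an A-type potassium channel (chr3:105451890-105674002, plus strand), was at 8.8 and 9.6 FPKM in wild type, 11.0 and 12.5 in CrxRip/+, 22.2 and 21.7 in CrxRip/Rip, 12.6 and 14.3 in Crx-/- and 14.5 and 14.1 in Nrl-/-. CrxRip/Rip stood apart above all other groups. It rose by 0.32, 1.17, 0.50 and 0.59 (adjusted p 0.0177, 1.05e-05, 0.00157 and 0.000811). The rise in CrxRip/+ was no longer called without wild-type replicate 1 (0.26, adjusted p 0.107) or CrxRip/+ replicate 2 (0.24, 0.0958), nor after rescaling (0.16, 0.192) or by the adjusted p of the authors' deposited table (0.611), and the rescaled rise in Nrl-/- was 0.37.

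Kcng4 is a modulatory potassium channel subunit (chr8:119623854-119635680, minus strand). It was at 5.2 and 5.1 FPKM in wild type, 12.7 and 12.8 in CrxRip/+, 14.3 and 10.7 in CrxRip/Rip, 8.5 and 7.6 in Crx-/- and 8.8 and 7.7 in Nrl-/-. All mutant samples were higher than wild type, the CrxRip samples most. It rose by 1.16, 1.12, 0.56 and 0.59 (standard error 0.134, largest adjusted p 0.00474), and the rise in Nrl-/- was 0.39 after rescaling. Kcng1, of the same family, ranged from 0.1 to 2.9 FPKM over the 10 samples and rose in CrxRip/+ (1.38, adjusted p 0.00123), Crx-/- (0.94, 0.00811) and Nrl-/- (0.92, 0.0102). In CrxRip/Rip Kcng1 differed by 0.47 (adjusted p 0.119) and was called without either CrxRip/+ pool. The authors' deposited table gives it a log2 fold change of 1.41 there, with an adjusted p of 0.00261. Its call in Nrl-/- was lost without wild-type replicate 2 (0.86) or Nrl-/- replicate 2 (0.73).

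Kcnk9 and Kcnk3 encode background potassium channels of the TASK type. Kcnk9 (chr15:72501873-72548614, minus strand) was at 1.7 and 2.1 FPKM in wild type, 4.3 and 2.9 in CrxRip/+, 6.5 and 6.5 in CrxRip/Rip, 4.9 and 5.3 in Crx-/- and 3.3 and 3.9 in Nrl-/-, higher in every mutant sample. It rose by 0.65, 1.37, 1.08 and 0.67 (largest adjusted p 0.00502), with 0.43 in CrxRip/+ without CrxRip/+ replicate 1. By the adjusted p of the authors' deposited table (0.0528) Kcnk9 was not called in CrxRip/+. Kcnk3 was at 5.2 and 5.5 in wild type, 17.1 and 18.5 in CrxRip/+, 8.4 and 14.7 in CrxRip/Rip, 12.8 and 13.0 in Crx-/- and 6.7 and 5.2 in Nrl-/-. It rose in the 3 Crx genotypes by 1.57, 0.94 and 1.13 (adjusted p 0.000257, 0.00367 and 0.0013) and overlapped wild type in Nrl-/- (0.12, 0.629). The CrxRip/Rip pools differed in Kcnk3, and the rise was 0.57 without replicate 2. Kcnj6, a G protein gated inward rectifier, ranged from 1.4 to 7.4 FPKM and was highest in Crx-/-, where it rose by 1.55 (adjusted p 1.05e-05). It also rose in CrxRip/Rip (0.71, 0.00103) and in CrxRip/+ (0.41, 0.0192), the last not without wild-type replicate 1 (0.30, 0.132) or CrxRip/+ replicate 2 (0.0653), nor after rescaling (0.30, 0.0732). The authors' deposited table gives Kcnj6 an adjusted p of 0.187 there.

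**Figure D3:**
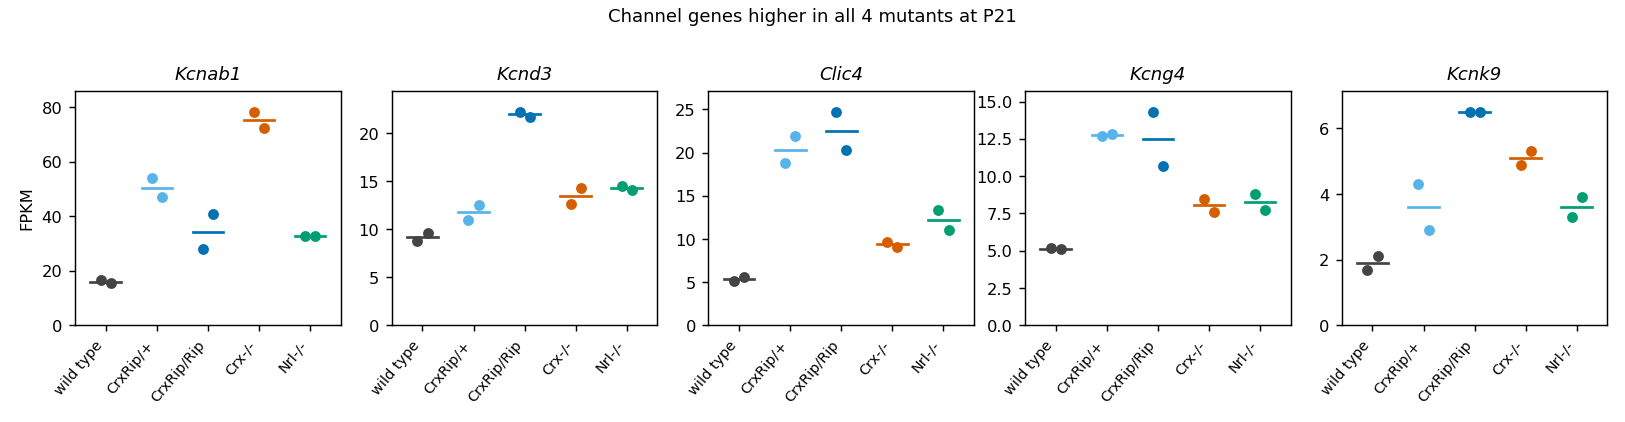
FPKM at P21 on linear axes for the 5 genes that rose in all 4 mutants, with 1 point per sample and a line at the mean of the 2 samples. Kcnab1 is highest in Crx-/- (78.2 and 72.2), Kcnd3 and Kcnk9 in CrxRip/Rip, and Clic4 and Kcng4 in both CrxRip genotypes.

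Of the 5 voltage-gated calcium channel genes, Cacnb2 alone fell in all 4 mutants and the pore-forming subunits diverged. Cacna1h, the pore of a T-type channel (chr17:25374285-25436334, minus strand), was at 12 and 13.5 FPKM in wild type, 12.7 and 15.9 in CrxRip/+, 7.0 and 7.9 in CrxRip/Rip, 66.0 and 80.7 in Crx-/- and 47.7 and 44.6 in Nrl-/-. Crx-/- and Nrl-/- lay far above wild type, CrxRip/Rip below it, and CrxRip/+ overlapped it. It rose by 2.43 in Crx-/- and 1.78 in Nrl-/- and fell by 0.70 in CrxRip/Rip (standard error 0.139, adjusted p 1.3e-06, 9e-06 and 0.00161), with 0.15 (0.352) in CrxRip/+. In Crx-/- this was the 24th highest change of the 1497 genes.

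Cacna1f, the pore of the L-type channel of photoreceptor terminals (chrX:7607103-7635196, plus strand), was at 50.5 and 53.9 FPKM in wild type, 45.0 and 44.8 in CrxRip/+, 45.4 and 57.6 in CrxRip/Rip, 29.0 and 31.5 in Crx-/- and 45.1 and 50.5 in Nrl-/-. Only the Crx-/- samples stood clear of the others, and the gene fell there by 0.77 (standard error 0.121, adjusted p 0.000431). In the other 3 groups it differed by -0.21, -0.03 and -0.13 (adjusted p 0.142, 0.837 and 0.373). After rescaling it was also called in CrxRip/+ (-0.39, 0.0168) and Nrl-/- (-0.35, 0.0261). By the authors' deposited table Cacna1f was lower in CrxRip/+ as well (log2 fold change -0.44, adjusted p 0.00147). Its partner Cacnb2 fell in all 4. Cacna1s, the L-type pore best known from skeletal muscle, ranged from 1.2 to 3.5 FPKM. It fell in CrxRip/Rip (1.2 and 1.4 against 2.8 and 2.4, change -0.65, adjusted p 0.00849) and in Nrl-/- (1.5 and 1.5, -0.52, 0.0257). Cacna1s lost these calls in single omissions: 0.0573 in CrxRip/Rip without wild-type replicate 1, and 0.131, 0.0527, 0.0866 and 0.0861 in Nrl-/- without either wild-type or either Nrl-/- pool. It was called lower in CrxRip/+ without CrxRip/+ replicate 2 (-0.36, 0.0297), and in Crx-/- the difference of 0.32 (0.117) was called without either CrxRip/+ pool (0.0162 and 0.0163).

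Cacna2d3, an alpha2-delta subunit that carries channels to the membrane (chr14:28904943-29722775, minus strand), was at 7.4 and 10.8 FPKM in wild type, 11.8 and 10.3 in CrxRip/+, 6.7 and 5.9 in CrxRip/Rip, 15.1 and 13.3 in Crx-/- and 15.4 and 15.2 in Nrl-/-. Its wild-type pools differed from each other, and CrxRip/+ overlapped them. It rose in Crx-/- (0.61, adjusted p 0.00743) and Nrl-/- (0.71, 0.00399) and fell in CrxRip/Rip (-0.45, 0.0294). The fall was -0.20 (0.222) without wild-type replicate 2, -0.69 without replicate 1 and -0.37 (0.118) without CrxRip/Rip replicate 2, and it was -0.35 (0.076) after rescaling and had an adjusted p of 0.121 with only the 2 genotypes in the fit. In CrxRip/+ it differed by 0.27 (0.152), and by 0.52 (0.0157) without wild-type replicate 2. The rises were 0.36 and 0.47 without wild-type replicate 1, and that in Crx-/- was 0.52 (0.0545) without Crx-/- replicate 1.

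Among the receptors for transmitters, the nicotinic genes Chrna3 and Chrna5 rose in CrxRip/Rip and Crx-/- and in no other mutant. Chrna3 (chr9:55010117-55026562, minus strand), a subunit of ganglionic-type acetylcholine receptors, was at 2.9 and 2.5 FPKM in wild type, 3.0 and 3.9 in CrxRip/+, 9.9 and 8.5 in CrxRip/Rip, 19.8 and 17.8 in Crx-/- and 3.3 and 3.7 in Nrl-/-. Crx-/- was highest, CrxRip/Rip between it and the rest, and the gene rose there by 2.42 and 1.46 (standard error 0.133, adjusted p 1.13e-06 and 1.65e-05). In CrxRip/+ and Nrl-/- it differed by 0.26 (0.104) and 0.28 (0.0858), and without CrxRip/+ replicate 1 the former was called (0.41, 0.0322). Chrna5, an accessory subunit of the same receptors (chr9:54980827-55011420, plus strand), was at 1.0 and 1.4 in wild type, 0.6 and 1.6 in CrxRip/+, 6.3 and 3.1 in CrxRip/Rip, 4.8 and 4.4 in Crx-/- and 0.5 and 0.7 in Nrl-/-. It rose by 1.32 and 1.35 in CrxRip/Rip and Crx-/- (standard error 0.296, adjusted p 0.00315 and 0.00274). In Nrl-/- Chrna5 was not called by the fit of all 5 genotypes. With only the 2 genotypes in the fit it was called lower there (-0.46, adjusted p 0.0285). The authors' deposited table gives a log2 fold change of -1.18 and an adjusted p of 1.33e-05 for it in Nrl-/-. The annotated spans of Chrna3 and Chrna5 overlap on opposite strands, and how strand entered the counting is not given in the sources used here, so reads of 1 gene may have been counted for the other. The spans of Kcnab2, Cacna1h, Cacna2d3 and Ano3 also overlap a protein-coding gene (Nphp4, Tpsg1, Lrtm1 and Muc15 in that order). The same may hold for these genes, which was not tested.

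Gabrr3, a rho subunit of GABA receptors (chr16:59407382-59461739, plus strand), was at 9.3 and 8.3 FPKM in wild type, 6.6 and 6.2 in CrxRip/+, 5.0 and 4.9 in CrxRip/Rip, 18.9 and 18.1 in Crx-/- and 9.7 and 11.1 in Nrl-/-. The CrxRip samples lay below wild type and the Crx-/- samples above it. It fell by 0.40 in CrxRip/+ (adjusted p 0.00559, and 0.0504 without wild-type replicate 1) and by 0.72 in CrxRip/Rip (0.000184), and it rose by 0.99 in Crx-/- (2.7e-05). In Nrl-/- it differed by 0.22 (0.0753) and was called without Nrl-/- replicate 1 (0.31, 0.0479). The ATP-gated channel P2rx2 was at 1.8 and 1.6 in wild type and fell in CrxRip/Rip (0.8 and 0.9, change -0.54, adjusted p 0.00169) and in Crx-/- (1.1 and 0.9, -0.43, 0.00575). It was at 1.2 and 1.5 in CrxRip/+ and 2.0 and 2.1 in Nrl-/-, neither called, and after rescaling P2rx2 was called lower in CrxRip/+ (-0.31, 0.025).

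**Figure D4:**
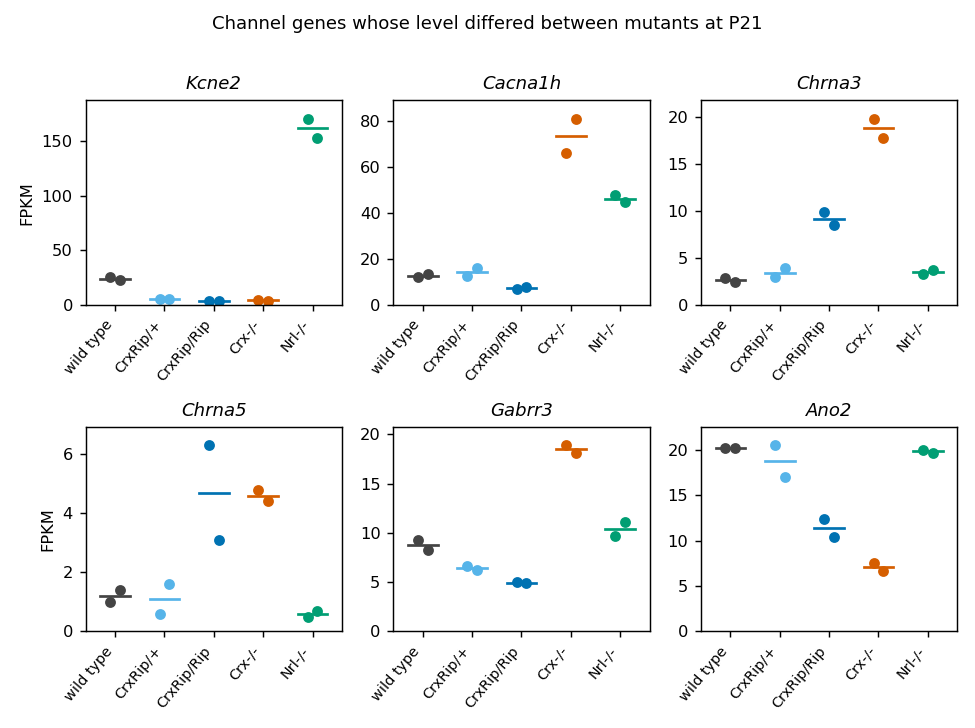
FPKM at P21 on linear axes for 6 channel and receptor genes whose level differed among the mutants, with 1 point per sample and a line at the mean of the 2 samples. Kcne2 is high in Nrl-/- alone, Cacna1h in Crx-/- and Nrl-/-, Chrna3 and Chrna5 in CrxRip/Rip and Crx-/-, Gabrr3 in Crx-/-, and Ano2 is low in CrxRip/Rip and Crx-/-.

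Of the calcium-activated chloride channels, Ano2, which is found at photoreceptor terminals (chr6:125690419-126040133, plus strand), was at 20.2 and 20.2 FPKM in wild type, 20.5 and 17.0 in CrxRip/+, 12.4 and 10.4 in CrxRip/Rip, 7.5 and 6.7 in Crx-/- and 20.0 and 19.7 in Nrl-/-. It fell in CrxRip/Rip and in Crx-/- by 0.78 and 1.39 (standard error 0.118, adjusted p 0.000351 and 1.18e-05), and CrxRip/+ overlapped wild type. By the authors' deposited table Ano2 was also lower in CrxRip/+ (log2 fold change -0.31, adjusted p 0.0381). Ano1 was at 0.6 and 0.7 in wild type and 2.4 and 3.5 in Nrl-/-, where it rose by 1.25 (adjusted p 0.00284). In the 3 Crx genotypes Ano1 ranged from 0.7 to 2.2 with no call. In CrxRip/+ (0.65, adjusted p 0.0512) Ano1 was called with pseudocounts of 0.1 (1.15, 0.0377) and 0.5 (0.86, 0.0442). The authors' deposited table gives it a log2 fold change of 1.0 there, with an adjusted p of 3.27e-06. It was also called there without CrxRip/+ replicate 2 (0.96) or either CrxRip/Rip pool, and in CrxRip/Rip (0.38, 0.214) without replicate 1 (0.71). With only the 2 genotypes in the fit Ano1 was called in Crx-/- (0.35, 0.012). Trpc1, a cation channel subunit of the TRP family (chr9:95705072-95750386, minus strand), was at 18.9 and 20.8 in wild type, 13.8 and 17.4 in CrxRip/+, 13.6 and 8.5 in CrxRip/Rip, 11.4 and 12.1 in Crx-/- and 6.7 and 7.3 in Nrl-/-. It was lower in every mutant sample and was called in CrxRip/Rip (-0.82, 0.00407), Crx-/- (-0.71, 0.00876) and Nrl-/- (-1.38, 0.000271), the last the lowest group. In CrxRip/Rip the fall was 0.51 without replicate 2, and in Crx-/- the adjusted p was 0.055 without wild-type replicate 2 and 0.0503 without Crx-/- replicate 1. In CrxRip/+ (-0.34, adjusted p 0.144) Trpc1 was not called with all samples, but it was called without either CrxRip/Rip pool. The authors' deposited table gives Trpc1 a log2 fold change of -0.59 there, with an adjusted p of 1.97e-05.

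Kcnn1, a small-conductance calcium-activated potassium channel (chr8:70843158-70865691, minus strand), rose in CrxRip/+ and Nrl-/-. It was at 2.0 and 1.8 FPKM in wild type, 3.7 and 3.6 in CrxRip/+, 1.6 and 1.6 in CrxRip/Rip, 1.8 and 1.7 in Crx-/- and 3.5 and 3.3 in Nrl-/-. The samples of these 2 genotypes lay above all others, with rises of 0.68 and 0.60 (standard error 0.0893, adjusted p 0.00019 and 0.00038). In CrxRip/Rip limma made no call, and the authors' deposited table gives Kcnn1 a log2 fold change of -0.5 there, with an adjusted p of 0.0438. Kcnh6, the ether-à-go-go related channel outside the symbol rule, was at 6.8 and 6.7 in wild type, 9.8 and 9.1 in CrxRip/+, 12.9 and 11.7 in CrxRip/Rip, 7.1 and 7.5 in Crx-/- and 19.5 and 18.6 in Nrl-/-. It rose by 0.43, 0.78 and 1.37 in CrxRip/+, CrxRip/Rip and Nrl-/- (adjusted p 0.00231, 6.04e-05 and 2.94e-06).

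Genes of related channels with other names were taken from fixed lists. Of 6 cyclic nucleotide gated channel genes, 4 were in the P21 table. The rod subunits Cnga1 and Cngb1 fell in all 4 mutants, Cnga1 from 244.5 and 228.2 FPKM in wild type to 59.6 and 54.3 in Crx-/- and at most 0.2 in the other 3 groups. The cone subunit Cngb3 rose in all 4, from 4.7 and 4.8 to 99.9 and 83.3 in Nrl-/- at the highest. Its partner Cnga3 fell in CrxRip/+ and CrxRip/Rip (3.6 and 3.7 in wild type, 0.2 and 0.2, and 0.0 and 0.0) and rose in Crx-/- (6.0 and 6.0) and Nrl-/- (52.8 and 46.4). Of 45 other channel genes, 7 were in the table, and Ttyh2, Asic4, Lrrc8c and Orai1 rose in all 4 mutants. Asic4, of the proton-gated channel family, went from 13.4 and 13.1 to between 36.3 and 56.3 FPKM. Otop3, a proton channel, was at 3.2 and 3.0 in wild type and 53.0 and 50.3 in Nrl-/- (3.68, adjusted p 6.85e-06).

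Proteins that bind channels were also in the table, 5 of a list of 30. Cabp4, the calcium-binding modulator of the photoreceptor L-type channel, fell in all 4 mutants, from 78.6 and 69.6 FPKM in wild type to 2.4 and 1.8 in CrxRip/Rip. Rims2 of the active zone and Pex5l fell in all 4 as well. Pex5l went from 103.1 and 104.5 to 35.7 and 32.0 in CrxRip/+, 28.2 and 24.0 in CrxRip/Rip, 66.1 and 62.2 in Crx-/- and 62.3 and 60.4 in Nrl-/-. Kctd12, an auxiliary subunit of GABA-B receptors, rose in all 4. Among 16 pumps, exchangers and cotransporters, 2 were in the table: the rod exchanger Slc24a1 fell in all 4 (293.1 and 275.6 in wild type, at most 6.6 in any mutant sample) and the cone exchanger Slc24a2 rose in all 4.

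The mutants were also compared with each other at P21. CrxRip/Rip and CrxRip/+ differ both in the normal Crx copy and in the number of CrxRip copies, which this comparison alone cannot tell apart. In it 4 of 26 channel genes were higher in CrxRip/Rip and 13 lower, beside 11.0% and 35.9% of all genes. Chrna5 (1.42, adjusted p 0.00537), Chrna3 (1.20, 0.000275), Kcnd3 (0.85, 0.000331) and Kcnk9 (0.72, 0.00608) were higher. Kcnv2 (-1.47, 0.00033), Cacna1h (-0.85, 0.00172) and Kcnn1 (-0.84, 0.000232) were among the lower, and Kcnj14 was not called. The median of all genes was -0.22 here and 0.00 after rescaling, which left 7 higher and 6 lower. With only these 2 genotypes in the fit, 7 channel genes were called.

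CrxRip/+ against Crx-/- gave 8 higher and 8 lower channel genes, beside 29.9% and 22.7% of the table. The largest differences were in Cacna1h (-2.28, adjusted p 1.01e-05), Chrna3 (-2.16, 1.02e-05), Chrna5 (-1.46, 0.0037) and Gabrr3 (-1.40, 1.82e-05), all lower in CrxRip/+, and in Ano2 (1.28, 7.64e-05), which was higher. After rescaling the split was 7 higher and 12 lower. CrxRip/Rip against Crx-/- gave 5 higher and 11 lower, beside 19.4% and 33.9%. Cacna1h (-3.13, 9.78e-07) and Gabrr3 (-1.71, 4.49e-06) were lower in CrxRip/Rip and Clic4 (1.17, 0.000171) and Cacna1f (0.74, 0.00125) higher, and rescaling moved the median of all genes from -0.12 to 0.01. Cacna1h, Chrna3 and Gabrr3 were thus higher in Crx-/- than in either CrxRip genotype.

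Nrl-/- against Crx-/- gave 9 higher and 12 lower, beside 39.4% and 25.7%, with a median of all genes of 0.14 that rescaling took to 0.00. Kcne2 was higher in Nrl-/- by 4.97 (adjusted p 1.21e-08), Kcnv2 by 1.58 (8.67e-05) and Ano2 by 1.37 (2.81e-05). Chrna3 (-2.14, 6.18e-06), Chrna5 (-1.81, 0.000806), Kcnj6 (-1.32, 5.41e-05) and Kcnab1 (-1.18, 0.000298) were lower. These comparisons share samples with those against wild type and with each other.

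At P2, when most rods have yet to mature, the channel genes called against wild type were all lower on the deposited scale, while on a rescaled one 3 were higher in Nrl-/- and 1 in Crx-/-. In CrxRip/+, 0 of 10 rose and 3 fell, beside 3.71% and 12.7% of the 566 genes. In CrxRip/Rip, 0 rose and 4 fell, beside 5.83% and 21.2%, and in Crx-/-, 0 rose and 3 fell, beside 9.19% and 20.7%. In Nrl-/-, 0 rose and 6 fell, beside 18.9% and 64.7%. The share that fell was above that of the table in the 3 Crx genotypes and near it in Nrl-/-, with 10 genes behind each share. The counts of 0 are limma calls at an adjusted p under 0.05; at an unadjusted p under 0.05, 0, 0, 1 and 0 channel genes were higher. With the authors' deposited adjusted p values 0, 2, 1 and 2 channel genes were higher and 4, 4, 4 and 6 lower, in the same order. The CrxRip/+ count was 0 without wild-type replicate 2.

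In Nrl-/- the whole P2 table was shifted: the median change of all genes was -0.76, and that of the channel genes also -0.76. Rescaling by the median of ratios took the median of all genes to -0.04, with size factors of 0.5952 and 0.5704 for the Nrl-/- samples and 1.059 to 1.222 for the other 8. On that scale 3 channel genes were higher (Cacna1h 1.33, Kcna3 1.00 and Ano2 0.60) and 3 lower (Kcnv2 -0.94, Kcna5 -0.91 and Kcnn1 -0.33) in Nrl-/-. Which scale is right for a table selected on change was not tested, so directions for Nrl-/- at P2 are given with both. In Crx-/- the median moved from -0.14 to 0.01 on rescaling, and 1 channel gene was then higher and 3 lower.

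Kcnv2 and Grik3 fell in all 4 mutants at P2, as did 4.24% of the table. Kcnv2 was at 5.5 and 6.8 FPKM in wild type, 3.1 and 3.4 in CrxRip/+, 0.6 and 0.9 in CrxRip/Rip, 1.8 and 2.4 in Crx-/- and 1.2 and 1.3 in Nrl-/-. All mutant samples were below wild type and CrxRip/Rip was lowest. The change was -0.75, -2.03, -1.21 and -1.66 (standard error 0.137, adjusted p 0.00735, 1.24e-05, 0.000607 and 2.61e-05), or -0.94 in Nrl-/- after rescaling. Without wild-type replicate 2 the fall in CrxRip/+ was -0.61 with an adjusted p of 0.056.

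Grik3, a kainate receptor subunit (chr4:125490259-125714173, plus strand), was at 15.0 and 17.1 FPKM in wild type, 11.0 and 7.5 in CrxRip/+, 7.3 and 4.8 in CrxRip/Rip, 9.0 and 8.5 in Crx-/- and 5.9 and 5.8 in Nrl-/-. No mutant sample reached wild type. It changed by -0.75, -1.29, -0.80 and -1.31 (standard error 0.201, adjusted p 0.0372, 0.00121, 0.0213 and 0.00036). In CrxRip/+ the call was lost without wild-type replicate 1 (0.0887), wild-type replicate 2 (0.178), CrxRip/+ replicate 2 (-0.50, 0.221) or any Crx-/- or Nrl-/- pool (0.0693 to 0.0724), and with only the 2 genotypes in the fit (0.116). In Crx-/- it was lost without either wild-type pool (0.0582 and 0.0996) or either Crx-/- pool (0.078 and 0.106), and in Nrl-/- the rescaled change was -0.36 (0.123).

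Cacna1h at P2 stepped down from wild type to CrxRip/+ and on to CrxRip/Rip. Along these genotypes normal Crx copies are lost as CrxRip copies are gained, which these genotypes alone cannot tell apart. Crx-/- has neither normal Crx copies nor CrxRip copies, and its values are given beside them. Cacna1h was at 24.7 and 26.6 FPKM in wild type, 15.4 and 15.3 in CrxRip/+ and 8.4 and 8.2 in CrxRip/Rip. In Crx-/- it was at 28.4 and 37.6 and in Nrl-/- at 30.5 and 33.0. The CrxRip groups lay below wild type and apart from each other, and Crx-/- and Nrl-/- lay above it without a call. It fell by 0.70 in CrxRip/+ (adjusted p 0.00886, and 0.0624 without wild-type replicate 2) and by 1.52 in CrxRip/Rip (4.91e-05). In Crx-/- and Nrl-/- it differed by 0.34 (0.0892) and 0.30 (0.0702), and it was called in Crx-/- without replicate 1 of that genotype (0.54, 0.0259) and after rescaling (0.52, 0.0329). The authors' deposited table gives Cacna1h adjusted p values of 0.0125 in Crx-/- and 0.000317 in Nrl-/-. In Nrl-/- it was called without either Crx-/- pool (0.0233) and after rescaling (1.33).

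Ano2 fell in CrxRip/Rip and Crx-/- at P2 as it did at P21. It was at 5.9 and 6.3 FPKM in wild type, 4.3 and 5.3 in CrxRip/+, 2.7 and 2.6 in CrxRip/Rip, 3.2 and 3.3 in Crx-/- and 4.4 and 5.1 in Nrl-/-. The falls were 0.96 and 0.74 (standard error 0.104, adjusted p 0.000163 and 0.00163), against -0.30 (0.104) in CrxRip/+. The fall of 0.31 in Nrl-/- (0.0238) became a rise of 0.60 (0.00196) after rescaling, and without wild-type replicate 2 or Nrl-/- replicate 1 it was not called (0.108 and 0.14), nor by the adjusted p of the authors' deposited table (0.34).

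Kcna5 and Kcnn1 were called against wild type at P2 in Nrl-/- and in no other mutant. Kcna5, a Shaker-type pore (chr6:126532551-126535555, minus strand), was at 11.4 and 11.0 FPKM in wild type, 9.3 to 12.5 in the 3 Crx genotypes and 2.9 and 2.3 in Nrl-/-, where it fell by 1.77 (standard error 0.135, adjusted p 1.96e-05) or by 0.91 after rescaling. Kcnn1 was at 3.0 and 2.6 in wild type, 2.3 to 2.7 in the Crx genotypes and 1.1 and 0.8 in Nrl-/-, where it fell by 0.96 (6.8e-05) or 0.33 after rescaling. Both genes were still called lower in Nrl-/- after rescaling, and their Nrl-/- samples lay below all others on the deposited scale.

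Kcnip3, a calcium-sensing partner of A-type channels, was at 3.6 and 5.5 FPKM in wild type, 4.1 to 6.6 in the Crx genotypes and 2.8 and 2.6 in Nrl-/-. It fell there by 0.56 (adjusted p 0.0241), by 0.31 (0.17) without wild-type replicate 2, and it differed by 0.27 (0.223) after rescaling. The call was also lost without Nrl-/- replicate 1 (0.0652) or 2 (0.1) and with only the 2 genotypes in the fit (0.0514).

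Kcna3, Ano3 and Trpm1 were called by limma in no comparison with wild type at P2 on the deposited scale. Kcna3, another Shaker-type pore, ranged from 1.2 to 2.5 FPKM. It differed by -0.37 in CrxRip/Rip (adjusted p 0.0546) and was called there without either Crx-/- pool (0.0437 and 0.0446) or with a pseudocount of 0.1 (0.0461). In Nrl-/- Kcna3 differed by 0.23 (0.102), or by 1.00 with a call (8.92e-05) after rescaling, and the authors' deposited table gives it an adjusted p of 0.037 there. Ano3, an anoctamin, split the replicates: it was at 4.5 and 0.2 in wild type, 2.4 and 0.2 in CrxRip/+, 5.4 and 5.0 in CrxRip/Rip, 0.3 and 0.2 in Crx-/- and 0.2 and 0.2 in Nrl-/-. In the authors' deposited table Ano3 nevertheless had an adjusted p of 3.76e-12 for CrxRip/Rip against wild type (log2 fold change 1.02) and of 2.13e-93 for Crx-/- (-3.48). In limma it differed by 1.27 (0.242) and -1.04 (0.252), and it was called in CrxRip/Rip without wild-type replicate 1 (2.37, 0.0113) and in Crx-/- and Nrl-/- without wild-type replicate 2 (-2.14, 0.0304, and -2.20, 0.00528).

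Trpm1, the transduction channel of ON bipolar cells that melanocytes also make, was between 0.4 and 1.2 FPKM in 9 samples and at 3.9 in CrxRip/Rip replicate 2. The authors' deposited table gives a log2 fold change of 1.5 and an adjusted p of 9.67e-13 for CrxRip/Rip against wild type, where limma gives 0.54 (0.48). Without CrxRip/Rip replicate 1 it was called (1.45, 0.000227). CrxRip/Rip replicate 2 also stood above its partner in Gja1 (12.2 against 1.9 FPKM) and the pericyte marker Rgs5 (3.4 against 1.2). So did a haemoglobin gene of the erythrocyte list (4.9 against 0.9). The sample stood below its partner in the pigment epithelium marker Ttr (1.9 against 2.2), Gfap (3.7 against 6.4) and Piezo1 (2.8 against 7.1). Crx-/- replicate 2 had Rgs5 at 3.3 and the haemoglobin gene at 4.4, with Trpm1 at 1.2. The part of other cells in the Trpm1 value of CrxRip/Rip replicate 2 was not tested.

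**Figure D5:**
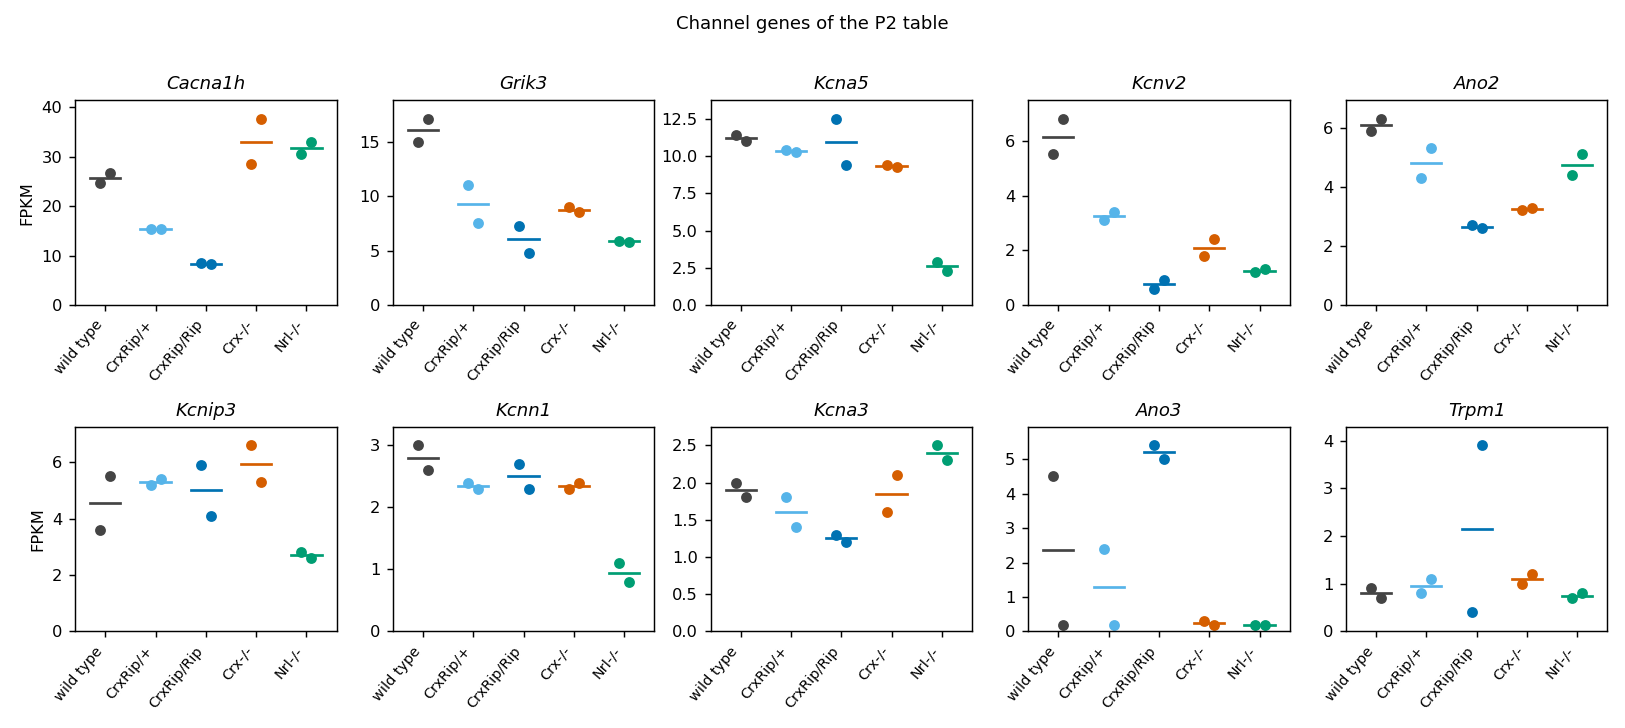
FPKM at P2 on linear axes for all 10 channel genes, with 1 point per sample and a line at the mean of the 2 samples of a genotype. Cacna1h steps down from wild type to CrxRip/+ and on to CrxRip/Rip, and Kcna5 and Kcnn1 are low in Nrl-/-. The points of Ano3 in wild type (4.5 and 0.2) and Trpm1 in CrxRip/Rip (0.4 and 3.9) lie far apart.

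Between mutants at P2, CrxRip/Rip against CrxRip/+ gave 0 higher and 3 lower of 10, beside 2.83% and 11.3%: Kcnv2 (-1.28, adjusted p 0.00079), Cacna1h (-0.81, 0.00495) and Ano2 (-0.66, 0.00378). Without CrxRip/Rip replicate 1 there were 1 higher and 4 lower, and by the authors' deposited adjusted p 2 were higher and 4 lower. CrxRip/+ against Crx-/- gave 2 higher and 1 lower, beside 16.1% and 12.5%: Kcnv2 (0.46, 0.0403) and Ano2 (0.44, 0.0176) were higher and Cacna1h (-1.04, 0.00128) lower. After rescaling, without CrxRip/+ replicate 2 or without Crx-/- replicate 1, Cacna1h alone was called. CrxRip/Rip against Crx-/- gave 1 higher and 2 lower, beside 18.2% and 23.1%: Ano3 (2.31, 0.0271) was higher, with no channel gene called higher without either Crx-/- pool, and Cacna1h (-1.86, 3.03e-05) and Kcnv2 (-0.82, 0.00218) lower. After rescaling 1 was higher and 4 were lower.

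Nrl-/- against Crx-/- at P2 gave 1 higher and 5 lower, beside 18.9% and 59.9%, with a median of all genes of -0.57. Ano2 was higher (0.43, adjusted p 0.00498), and Kcna5 (-1.53, 6.03e-05), Kcnip3 (-0.90, 0.00271), Kcnn1 (-0.78, 0.000303), Grik3 (-0.51, 0.0446) and Kcnv2 (-0.46, 0.0147) were lower. Rescaling took the median of all genes to 0.03 and the split to 3 higher and 1 lower.

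For the 4 genes in both tables the values of the 2 ages stand side by side, with no test between ages. Kcnv2 was at 5.5 and 6.8 FPKM in wild type at P2 and at 127.7 and 119.3 at P21. It was lower than wild type in all 4 mutants at both ages. Cacna1h was the highest channel gene of the P2 table in wild type (24.7 and 26.6) and stood at 12 and 13.5 at P21. In CrxRip/+ it was lower than wild type at P2 (-0.70) and not called at P21 (0.15), and in Crx-/- it was not called at P2 (0.34) and 2.43 higher at P21. Ano2 fell in CrxRip/Rip and Crx-/- at both ages, by 0.96 and 0.74 and by 0.78 and 1.39. Kcnn1 was 0.96 lower in Nrl-/- at P2, or 0.33 lower after rescaling, and 0.60 higher there at P21.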

How the data were processed

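RNA sequencing of 20 retina samples was analysed from 2 tables, 1 per age. Per the file headers, sample values are FPKM, which the authors rounded to 1 decimal, with the authors' mean FPKM per genotype. The other columns hold the authors' adjusted p-values and log2 fold changes for pairs of genotypes, per the file headers, with a constant of either sign for a ratio with a group near 0. Libraries were directional TruSeq libraries from total RNA, per the labels' protocols. DESeq is the tool named in the submitters' processing notes, with no version. Not given in the sources used here: the aligner, the read counter, the build and the strand setting. Columns not mapped to a sample numbered 0.

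Groups came from sample titles. limma (3.58.1, R 4.3.3) was fitted to log2(FPKM + 1) of all 10 samples of an age, with a variance trend and empirical Bayes moderation (5 residual degrees of freedom, prior 2.95 at P2 and 3.06 at P21). Per age 8 comparisons were made. P values are two-sided and Benjamini-Hochberg adjusted over the whole table, separately per comparison, and a difference was called at an adjusted p under 0.05. Standard errors are limma's, and folds are ratios of mean FPKM. The fit was tested on simulated data first. Alternatives were pseudocounts of 0.1 and 0.5, a filter at 2 FPKM, rescaling by the median of ratios, no variance trend, only the 2 genotypes compared, a replicate block, the authors' adjusted p and leaving out each sample. Correlations of same-numbered samples' deviations lay between -0.30 and 0.33 over 10 pairs of genotypes per age, so numbers were not used to pair samples.

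All channel genes counted may be named. Full sample values are given for genes called against wild type that are among the 5 highest of their family group, called the same way in all 4 mutants or in both tables, and a few others were added after their values were seen. Other genes come from fixed lists of related channels and cell markers. The genes, lists and tests were chosen with earlier results of these data known. All 32 transcripts matched RefSeq (GRCm38) under the same symbol, from which positions and promoters were taken. 4 genes with these prefixes are in no count of channel genes and are not reported here.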

Additional observations from a re-analysis of the deposited data

Results flagged for a closer look

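Kcnn1 lay below wild type at P2 and above it at P21 in both samples of CrxRip/+ and of Nrl-/-. In CrxRip/+ the P2 difference of -0.18 was not called (limma adjusted p 0.357) and the gene rose by 0.68 at P21 (0.00019). In Nrl-/- it changed by -0.96 at P2 (6.8e-05) and by 0.60 at P21 (0.00038). The ages were deposited in separate tables, and the difference between ages was not tested. At P2 the fall in Nrl-/- was -0.33 (0.0277) after rescaling by the median of ratios.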

How the results depend on the processing

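With 2 pools a genotype, no read counts and tables selected on change, precision is limited, and not for small differences alone. The rise of Kcng1 in Nrl-/- at P21 (0.92) was among the calls lost when 1 sample was left out. Of 94 called changes against wild type, 75 were called under every alternative and 19 were lost in 1 or more, 9 of them under processing alternatives and 17 when 1 sample was left out. 2 reversed, both in Nrl-/- at P2 after rescaling by the median of ratios: Ano2 to 0.60 (adjusted p 0.00196) and Kcnip3 to 0.27 (0.223), where the median of all genes moved from -0.76 to -0.04 by the construction of that scale. With a pseudocount of 0.1, 10 of the 94 changes moved by over 1.5 times and all 94 stayed called.

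For counts of called channel genes at P2, leaving out 1 sample gave 0 to 3 (3 with all samples) for CrxRip/+ against wild type, 3 to 5 (3) for CrxRip/Rip against CrxRip/+ and 1 to 3 (3) for CrxRip/+ against Crx-/-. The authors' adjusted p gave 5 for Crx-/- against wild type (3), 6 for CrxRip/Rip against CrxRip/+ and 5 for CrxRip/Rip against Crx-/-. Rescaling gave 1 for CrxRip/+ and 5 for CrxRip/Rip against Crx-/-, and the fit of only the 2 genotypes gave 1 for the former. At P21 that fit gave 7 for CrxRip/Rip against CrxRip/+ (17), with 279 genes of the table called in place of 703. The cause of these changes was not tested.

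With the replicate block, Nrl-/- against wild type at P2 had 7 called channel genes in place of 6, as Cacna1h (0.30, adjusted p 0.0473) was added. The numbers were not taken as a pairing, and no other call against wild type changed with the block.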
